A study of Bos taurus with 16 samples.

Results

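Cattle (Bos taurus) cumulus cells were compared here with granulosa cells on the contralateral ovary, the one without the corpus luteum. All libraries labelled contralateral were used, 4 of cumulus and 4 of granulosa cells, which is 8 of the 16 libraries of the series. The other 8 are the same cell types from ipsilateral follicles, on the ovary with the corpus luteum. Follicles were aspirated by ovum pick-up, a needle puncture of the ovary in the living animal, and each pool held cells of 3 animals. Breed and age of the animals are not given in the labels, and neither is whether a cumulus and a granulosa pool came from the same animals. The 2 groups therefore differ in cell type alone as far as the labels say, and share the species, the side and the way of collection.

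Both cell types descend from the same follicular epithelium. Cumulus cells surround the oocyte, feed it through thin projections and respond to factors it secretes, whereas granulosa cells line the follicle wall next to the basal lamina, receive gonadotropin signals and make oestradiol. A corpus luteum, the gland left after ovulation, secretes progesterone, and follicles on the opposite ovary lie farther from it.

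The count table has 36824 entries, of which 16897 passed the low-count filter and were tested. Most carry only an Ensembl ID, which could not be paired with a name. These entries hold 94.4% of the counts. Of the entries tested, 765 had a gene name, and all statements on named genes concern these. None of the 25 listed markers of the granulosa lineage, such as FSHR and CYP19A1, was found by name, so the labelled cell types could not be checked against them. Of 18 cumulus markers HYDIN was the only one found, and it was listed with earlier results of these data known.

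Totals were 17.6 ± 2.20 M counts in cumulus and 16.9 ± 4.71 M in granulosa libraries (SD, n = 4 each; exact permutation p = 0.886, two-sided, where the smallest possible p is 0.0286), and the shallowest library held 10.1 M. Where a library has no count of a gene, up to 3 counts remain possible, or 0.146 to 0.316 CPM (counts scaled to a total of 1 M), and this floor covers counting error only. The first principal component held 67.1% of the variance and separated the cell types. Across genes, log levels correlated at 0.945 to 0.967 between cumulus libraries, 0.930 to 0.965 between granulosa libraries and 0.792 to 0.855 between the types; genes are not independent replicates.

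Transcripts of other cells stood out in 3 libraries. Cumulus library 4 held 111 CPM of BCL2L10 and 92.2 CPM of H1FOO (H1-8), which are oocyte genes, and cumulus library 2 held 9.63 and 8.95 CPM of them and 2.09 CPM of MUC16, a mucin of surface epithelia. The other cumulus libraries held at most 0.849 CPM of either oocyte gene, and MUC16 was at 0 in cumulus libraries 1, 3 and 4. Among granulosa libraries, library 3 alone held more than the floor of these genes (5.53 and 5.23 CPM), and it also held 24.6 CPM of MUC16, against at most 0.738 CPM in the other granulosa libraries. PF4, a platelet chemokine gene, was at 0 to 0.243 CPM in cumulus and at 0.974 to 3.90 CPM in granulosa libraries. No listed marker of red blood cells, endothelium or theca was found by name. The part of other cells in the differences below was not tested, except that values without cumulus library 4 and granulosa library 3, or without cumulus library 2, are given where they matter. Without cumulus library 2, 7606 entries were called in place of the 8048 below. In pooled cells, more RNA of a gene per cell and more cells that express it cannot be told apart.

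The cell types differed widely. By edgeR's quasi-likelihood test, the source of every adjusted p below, 8048 entries (47.6%) were called at an adjusted p under 0.05. The level was higher in cumulus cells for 4157 of them (24.6% of those tested) and in granulosa cells for 3891 (23%). A difference of 2-fold or more was found for 2576 toward cumulus and 1993 toward granulosa cells. Above 10-fold the balance turned, with 314 entries toward cumulus and 538 toward granulosa cells. The libraries of the types did not overlap for 7767 entries (46%), and 7210 of these were called. Of the named genes 334 were called (43.7%), 186 toward cumulus and 148 toward granulosa cells. The split of the calls moved with scaling, from 51.7% higher in cumulus with the scaling used to 48.6% with median-of-ratios factors and 57.2% with library totals alone, where the median log2 fold change of all entries was 0.14 rather than 0.05.

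**Figure D1:**
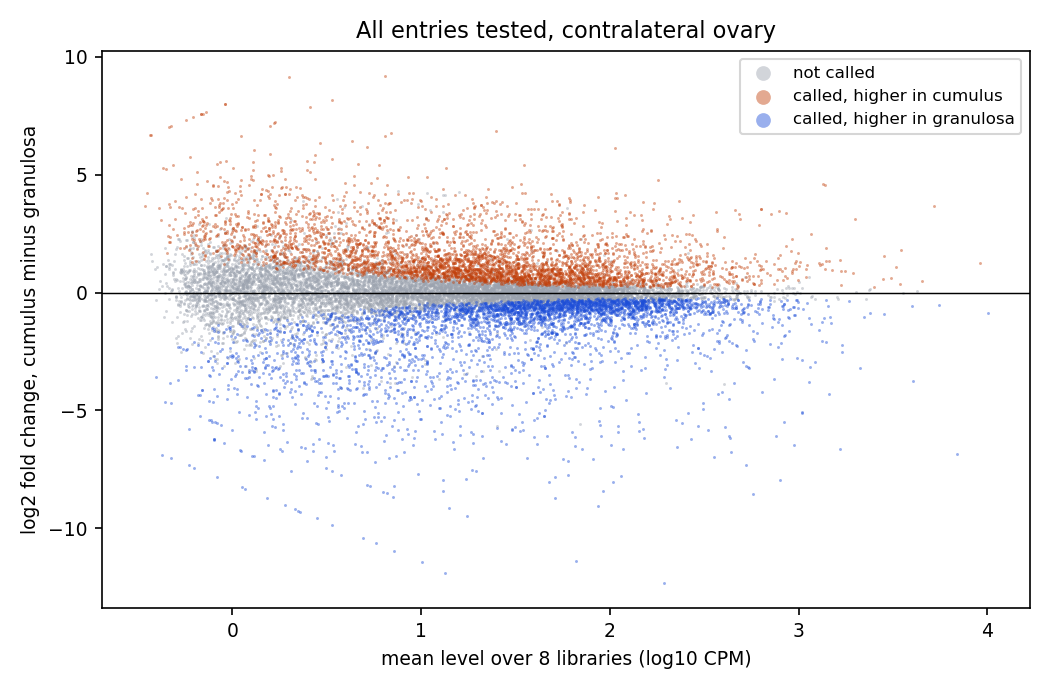
Log2 fold change (cumulus minus granulosa) against the mean level over the 8 libraries (log10 CPM) for the 16897 entries tested, one point each. Points called at an adjusted p under 0.05 lie above 0 (4157) and below 0 (3891), and those past 10-fold lie more often below; fold changes of entries at 0 in one type depend on the fitted model and are no bounds.

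Secreted and surface proteins were among the named genes with the largest differences toward cumulus cells. C11H2orf40 (ECRG4), which encodes the precursor of a secreted peptide, was at 1476, 879, 1238 and 1036 CPM in cumulus libraries 1 to 4 and at 29.6, 65.6, 134 and 173 CPM in granulosa libraries 1 to 4. It was 11.6-fold higher in cumulus cells (log2 fold change 3.54 ± 0.53 SE, adjusted p = 0.000849). The lowest cumulus library thus lay far above the highest granulosa library, although the granulosa libraries varied widely among themselves. NMB, the gene of the peptide neuromedin B, was at 199, 226, 116 and 158 CPM against 26.7, 25.2, 36.2 and 33.5 CPM, 5.81-fold higher in cumulus cells (adjusted p = 1.49e-05). EMB encodes embigin, a membrane glycoprotein that accompanies monocarboxylate transporters. It was at 166, 149, 164 and 133 CPM in cumulus and at 9.39, 7.61, 30.1 and 7.61 CPM in granulosa libraries, 11.1-fold apart (adjusted p = 0.000497). Without granulosa library 3, which was its highest, the difference was 18.8-fold. Of 3 tested growth factors and secreted regulators ECRG4 was the only one called, beside 47.6% of all entries.

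Other genes with large or abundant differences toward cumulus cells act inside the cell. KLHL31, of a family of kelch-repeat proteins, was at 33.9, 25.6, 35.8 and 30.3 against 1.90, 1.96, 4.89 and 7.85 CPM, 7.54-fold apart (adjusted p = 0.000401). TMEM246 (PGAP4), an enzyme that modifies lipid anchors of surface proteins, was 2.86-fold higher, and LOC506950 (MAP7D3), a microtubule-associated protein gene, 2.45-fold. Of 5 tested genes of cytoplasmic tubulins, kinesins and dyneins, DYNLT1 (1.44-fold) and WDR34 (DYNC2I2, 1.46-fold) were higher in cumulus cells. TCTE3 (16.2-fold, described below) was higher in granulosa cells, and 2 were not called, beside 24.6% and 23% of all entries called in each direction.

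**Figure D2:**
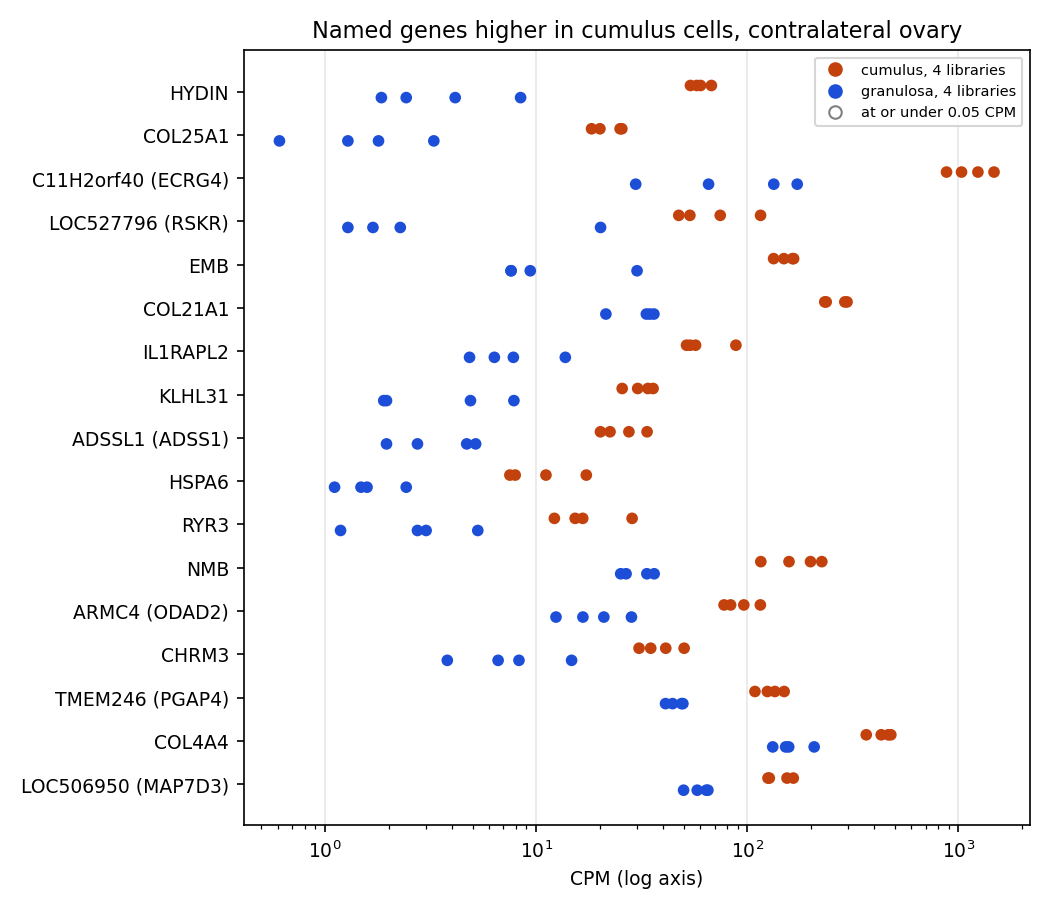
Level (CPM, log axis) in each of the 8 libraries for the named genes with the largest or most abundant differences toward cumulus cells, ordered by fold. All 4 cumulus points of each gene lie to the right of its 4 granulosa points. EMB (30.1 CPM in granulosa library 3) and LOC527796 (20.2 CPM in granulosa library 4) have 1 granulosa library well above the other granulosa libraries.

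Matrix genes differed in both directions. Among 9 collagen and collagen-tail genes tested, 5 were higher in cumulus cells, 1 was higher in granulosa cells and 3 were not called, beside 24.6% and 23% of all entries higher in each type. Their median log2 fold change was 2.15, beside 0.05 over all entries. COL21A1, a fibril-associated collagen, was at 290, 237, 297 and 233 CPM in cumulus and at 21.4, 34.6, 36.1 and 33.3 CPM in granulosa libraries, 8.49-fold apart (log2 fold change 3.09 ± 0.18 SE, adjusted p = 1.29e-06). The 4 libraries of each type lay close together. COL25A1, a membrane collagen, ranged from 18.3 to 25.5 CPM against 0.609 to 3.28 CPM, a 12.9-fold difference. COL4A4 forms part of the basement membrane network and was at 479, 431, 466 and 366 against 157, 152, 132 and 208 CPM, 2.72-fold higher in cumulus cells (adjusted p = 3.12e-05). COLQ, which anchors acetylcholinesterase to the matrix, was 4.45-fold higher and COL9A3 9.24-fold higher (22.3-fold without granulosa library 3). COL9A2 varied widely within the types, at 62.7, 171, 199 and 32.9 against 13.4, 36.0, 45.6 and 3.23 CPM, and was not called (adjusted p = 0.0567). It was called with DESeq2 (adjusted p = 0.03), with library totals alone (0.0453), without cumulus library 4 (0.0472) and without that library and granulosa library 3 (0.0394).

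The exception was COL24A1, a fibrillar collagen, at 1.22, 0.681, 1.62 and 5.25 CPM in cumulus and 20.9, 11, 10.4 and 12.7 CPM in granulosa libraries, 6.20-fold higher in granulosa cells and 11.8-fold without cumulus library 4. Of 8 laminins and other matrix proteins 3 were higher in each type, beside 24.6% and 23% of all entries. LAMA5, the laminin chain common to many epithelial basement membranes, was 3.65-fold higher in granulosa cells, at 11.6 to 18.4 CPM against 3.26 to 4.46 CPM. MXRA5 was 6.20-fold higher (9.99-fold without cumulus library 4) and CYR61 (CCN1), a matricellular protein gene, 1.77-fold higher there. WISP3 was 7.26-fold higher and CILP 16.9-fold higher in cumulus cells, CILP with 10.7-fold without cumulus library 4 and 51.9-fold without granulosa library 3. LAMA2 was called 1.87-fold higher in cumulus cells but lost the call in 7 of the 8 fits with 1 library left out.

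Both protease inhibitors described here were far more abundant in granulosa cells. Of 3 tested genes of proteases and their inhibitors, 2 were called, beside 47.6% of all entries. TIMP1, which inhibits matrix metalloproteinases, was at 56.1, 62.9, 71.9 and 41.1 CPM in cumulus and at 2453, 2009, 1814 and 1780.5 CPM in granulosa libraries. That is 34.2-fold (log2 fold change -5.10 ± 0.20 SE, adjusted p = 2.41e-07). A2M encodes alpha-2-macroglobulin, which traps proteases of many classes, and was at 4.88, 19.2, 12.1 and 8.98 against 643, 592, 763 and 592 CPM, a 56.4-fold difference toward granulosa cells (-5.82 ± 0.41, adjusted p = 9.76e-06). In both genes the spread within a type was small beside the distance between types. SYN3, 4.64-fold higher in granulosa cells at 428 to 476 against 73.9 to 117 CPM, is a synapsin gene whose locus also holds the metalloproteinase inhibitor gene TIMP3. TIMP1 likewise overlaps SYN1. The libraries do not mark strand, so the reads of such pairs could not be separated.

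**Figure D3:**
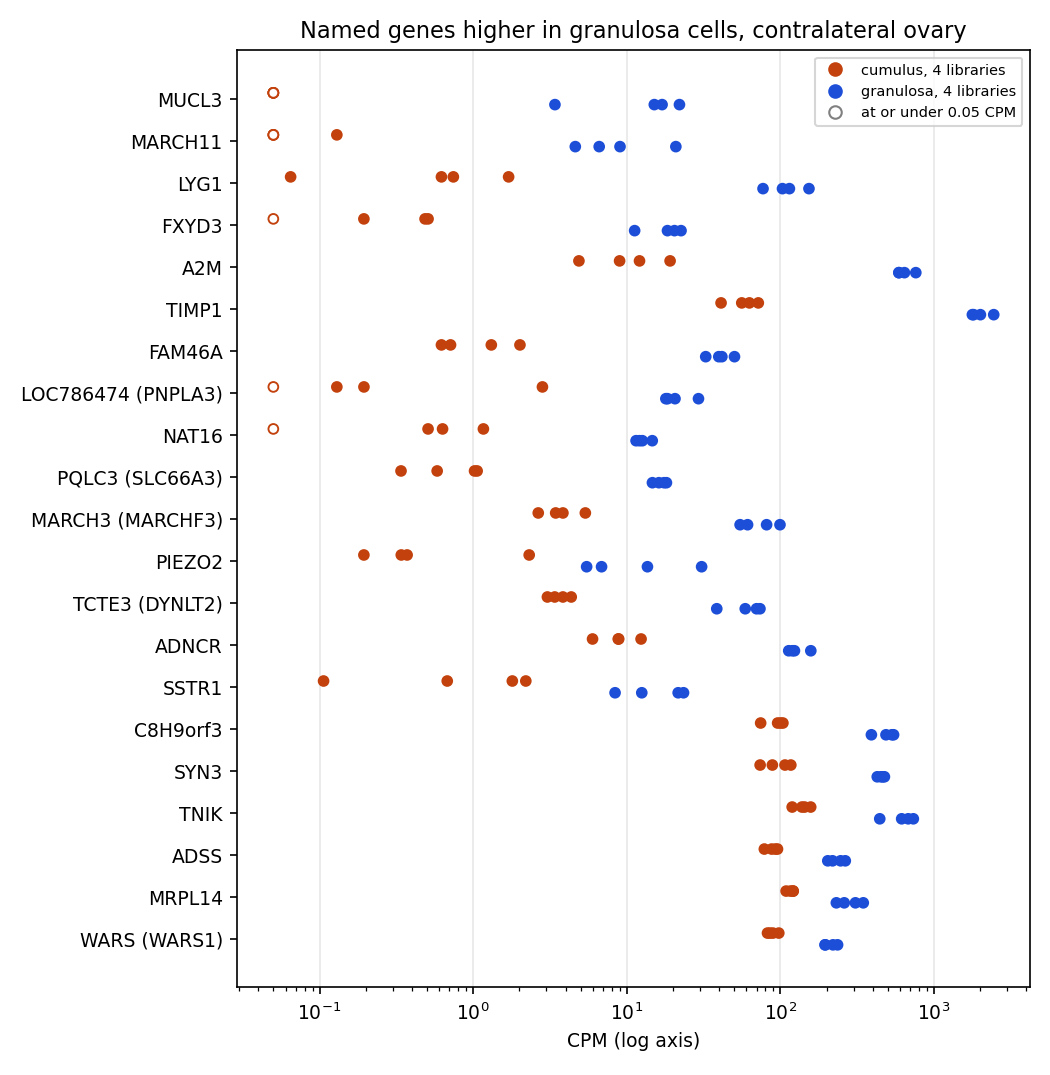
Level (CPM, log axis) in each of the 8 libraries for the named genes with the largest or most abundant differences toward granulosa cells, ordered by fold; open circles mark libraries at or under 0.05 CPM. TIMP1 and A2M keep all granulosa libraries at 1780.5 and 592 CPM or more, and PIEZO2 and LOC786474 have 1 cumulus library, library 4, nearer to the granulosa range (2.32 and 2.83 CPM).

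Several genes were close to silent in cumulus cells. LYG1, a lysozyme-like gene, was at 0.743, 1.70, 0.0648 and 0.622 CPM in cumulus and at 154, 103, 115 and 77.2 CPM in granulosa libraries, 134-fold apart (adjusted p = 1.2e-05; 223-fold without cumulus library 2). FXYD3, a regulator of the sodium pump, was at most at 0.509 CPM in cumulus and at 11.3 to 22.6 CPM in granulosa libraries, a 58.3-fold difference. MUCL3 had no count in any cumulus library and 895 counts in the granulosa libraries, which is at least 333-fold higher against a floor of 3 counts over the group. MARCH11 had 2 counts in cumulus, both in library 3, and 579 in granulosa libraries, a depth-scaled ratio of 323 (95% interval of the counts, 88.9 to 2671). FAM46A was 34.1-fold, NAT16 21.9-fold and LOC786474 (PNPLA3, a lipase-family gene) 27.2-fold higher in granulosa cells, the last 187-fold without cumulus library 4. A separate entry listed as PNPLA3 differed less in the same direction. Its log2 fold change was -2.85, beside -4.76 for LOC786474. Without cumulus library 4 the values were -3.81 and -7.55. That entry is given for comparison and is left out of the counts of genes named here. ADNCR, a long non-coding RNA that overlaps PLXDC2, was at 113 to 158 CPM in granulosa and 5.99 to 12.4 CPM in cumulus libraries, 14-fold apart. TNIK, a kinase of Wnt and JNK signalling, was at 144, 138, 158 and 119 CPM in cumulus and at 444, 735, 680 and 617 CPM in granulosa libraries, 4.37-fold apart (adjusted p = 5.41e-06), and C8H9orf3 was 5.16-fold higher in granulosa cells.

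Some receptor and channel genes differed as well. Of 17 entries found for G protein-coupled receptors and receptor tyrosine kinases, 6 passed the low-count filter. All 6 were called, beside 47.6% of all entries, and 4 of them were higher in granulosa cells. None of the 6 overlapped between types, beside 46% of all entries without overlap. P2RY13, EPHA4 and FZD9 were at most at 0.478 CPM in the lower type and passed the filter through the higher type. SSTR1, at 0.106 CPM in its lowest cumulus library, also passed through the granulosa libraries. Such passage favours calls and separation, so these counts are no support for a difference of receptors as a group. SSTR1, a somatostatin receptor, was at 0.106, 1.80, 2.20 and 0.678 against 21.6, 12.5, 8.40 and 23.4 CPM, 13.5-fold higher in granulosa cells (adjusted p = 0.00177). GPR142 was 11.6-fold higher there. The purinergic receptor gene P2RY13 (1.22 to 4.75 against at most 0.146 CPM, in a locus it shares with MED12L) and the ephrin receptor gene EPHA4 (0.74 to 4.14 against at most 0.478 CPM) were also higher in granulosa cells. EPHA4 lost the call without granulosa library 4 (adjusted p = 0.0552). PF4, the platelet gene given above, was higher in granulosa libraries too, and its part in these low levels was not tested. CHRM3, a muscarinic acetylcholine receptor, went the other way at 41.1, 34.9, 50.3 and 30.7 against 3.80, 6.61, 8.30 and 14.7 CPM, 4.72-fold higher in cumulus cells (adjusted p = 0.000646). So did the Wnt receptor gene FZD9, 19.5-fold and 31.3-fold without granulosa library 3, at 1.17 to 4.08 against at most 0.296 CPM.

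Of 13 entries found for ion channels, pumps and their regulators, 5 passed the low-count filter and were tested. FXYD3 and PIEZO2 were called, both toward granulosa cells. Both passed the filter through the granulosa libraries, which favours calls, so they are no support for a difference of the list. The share called over all entries was 47.6%. PIEZO2, a mechanosensitive channel, was at 0.372, 0.340, 0.194 and 2.32 CPM in cumulus and at 6.86, 13.6, 5.48 and 30.7 CPM in granulosa libraries. Its difference of 17.3-fold became 45.5-fold without cumulus library 4 and 10.6-fold without granulosa library 4. RYR3, a channel that releases calcium from the endoplasmic reticulum and was not among the 5 genes above, was 6.03-fold higher in cumulus cells. IL1RAPL2, an interleukin-1 receptor family gene, was 7.80-fold higher there. IRS1, a docking protein of the insulin and IGF receptors, was 1.66-fold higher in granulosa cells, with 50.4 to 66.1 against 24.6 to 40.5 CPM.

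Metabolic genes and transporters differed in both directions. Of the 2 enzymes that commit inosine monophosphate to adenosine monophosphate synthesis, ADSSL1 (ADSS1) was 7.13-fold higher in cumulus cells, at 22.4, 20.2, 33.6 and 27.5 against 2.74, 1.96, 4.69 and 5.17 CPM. ADSS was 2.59-fold higher in granulosa cells, at 265, 219, 204 and 247 against 87.8, 92.9, 95.9 and 78.7 CPM (adjusted p = 7.88e-06). The paralogs thus differed in opposite directions. Of 14 solute carriers, beside 24.6% and 23% of all entries higher in each type, 6 were higher in cumulus cells, among them the organic cation exporter SLC47A1 (2.62-fold), and 3 in granulosa cells, PQLC3 (SLC66A3, 21.4-fold), LOC534742 (SLC25A24, 3.42-fold) and PQLC2 (SLC66A1, 2.56-fold). LOC526067 (SLC22A12) was at 0.648 to 3.89 CPM in cumulus libraries and at 0 in all granulosa libraries but library 1 (0.422 CPM). NHEDC1 (SLC9B1) was 3.18-fold higher in cumulus cells and lost the call in 6 of the 8 fits with 1 library left out.

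**Figure D4:**
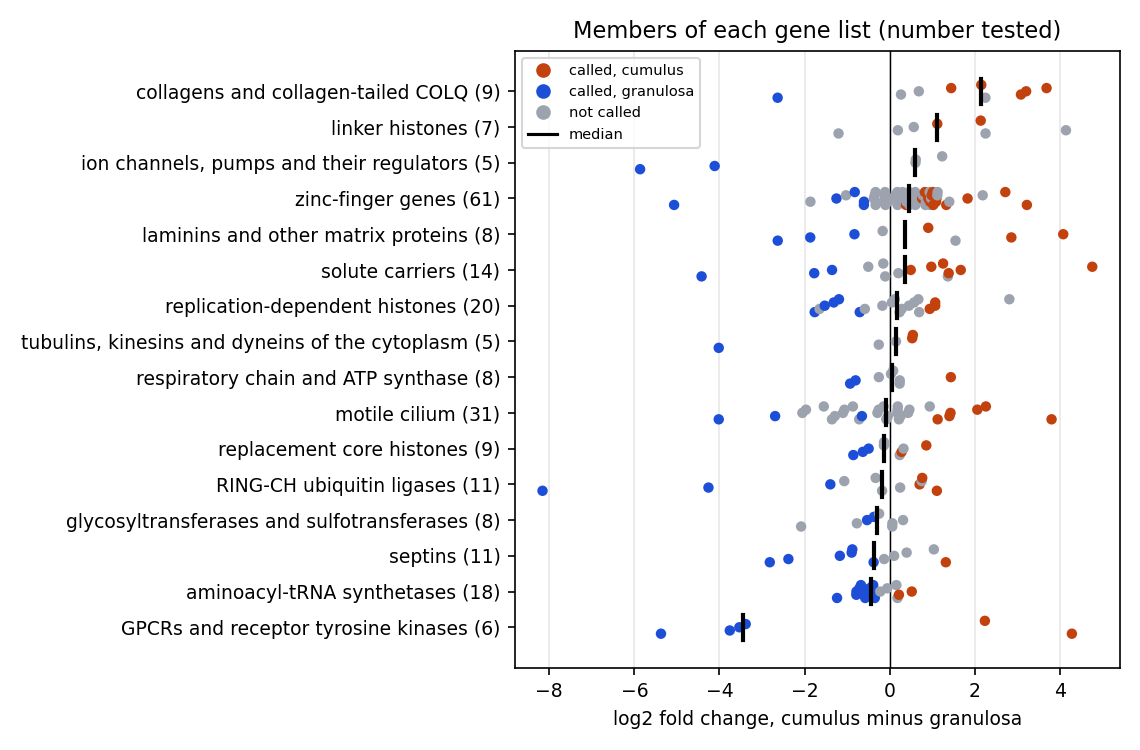
Log2 fold change (cumulus minus granulosa) of each tested member of the gene lists with at least 5 tested members, with the number tested in parentheses; black bars are list medians and coloured points were called. Collagens have the highest median (2.15), and most synthetases and septins lie below 0. The receptor median (-3.46) is the lowest, but only 6 of 17 receptor entries passed the low-count filter. Some of these passed through the higher type, so the median is no support for receptors as a group.

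The septins, GTP-binding proteins that form cytoskeletal filaments and rings, were mostly higher in granulosa cells. Of 11 tested, 6 were higher in granulosa cells, where 23% of all entries were, 1 was higher in cumulus cells and 4 were not called. SEPT6 (SEPTIN6) was at 10.6, 9.72, 10.7 and 6.55 CPM in cumulus and at 75.7, 66.4, 56.2 and 70.4 CPM in granulosa libraries, 7.05-fold apart (adjusted p = 2.43e-06). SEPT9 was 5.21-fold and SEPT5 (SEPTIN5) 2.25-fold higher in granulosa cells. The abundant SEPT2 (SEPTIN2) and SEPT7 (SEPTIN7) were 1.84-fold and 1.86-fold higher, at 428 to 476 against 227 to 246 CPM and at 261 to 316 against 139 to 163 CPM. SEPT11 was 1.30-fold higher and lost the call without cumulus library 1 or granulosa library 1. SEPT4 (SEPTIN4) alone was higher in cumulus cells, 2.50-fold, at 11.3 to 13.7 against 2.53 to 9.43 CPM. SEPT8 (SEPTIN8) and SEPT1 (SEPTIN1) were not called. Both stood far higher in cumulus library 4, which also held the oocyte transcripts (90.7 against 21.4 to 27 CPM, and 14.3 against 1.30 to 1.94 CPM). Without that library their log2 fold changes turned from 0.40 to -0.39 and from 1.04 to -0.56.

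Cytoplasmic aminoacyl-tRNA synthetases, which load amino acids onto tRNAs, moved toward granulosa cells by small amounts. Of 18 tested, 12 were higher in granulosa cells, where 23% of all entries were, and 2 in cumulus cells, where 24.6% were. The other 4 synthetases were not called. The median log2 fold change of the 18 was -0.43, beside 0.05 over all entries. The types did not overlap for 13 of the 18, beside 46% of all entries. WARS (WARS1) was at 89.5, 85.6, 82.5 and 97.8 CPM in cumulus and at 236, 197, 195 and 220 CPM in granulosa libraries, 2.36-fold apart (adjusted p = 6.07e-06). HARS (HARS1) and SARS (SARS1) were each 1.72-fold, TARS (TARS1) 1.64-fold and EPRS 1.60-fold higher in granulosa cells. KARS (KARS1) was called 1.16-fold higher in cumulus cells, but lost the call in all 8 fits with 1 library left out.

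The cilium genes were divided. Of 31 genes of the motile cilium, the beating hair of cells such as those of the oviduct, 6 were higher in cumulus cells, 3 in granulosa cells and 22 were not called, a smaller share called than the 47.6% of all entries. HYDIN, a protein of the axoneme's central pair, was at 67.7, 57.7, 60.1 and 53.8 CPM in cumulus and at 2.43, 1.85, 8.44 and 4.14 CPM in granulosa libraries, 14-fold apart (log2 fold change 3.81 ± 0.43 SE, adjusted p = 8.95e-05) and 21.2-fold without granulosa library 3. ARMC4 (ODAD2), which helps dock the outer dynein arms, was at 96.4, 83.4, 115 and 77.7 against 16.7, 12.4, 28.3 and 20.9 CPM, 4.79-fold higher in cumulus cells. IQCA1 was 4.17-fold higher, and 7.34-fold without granulosa library 3. In the opposite direction, TCTE3 (DYNLT2), a dynein light chain in a locus it shares with ERMARD, was at 3.40, 3.84, 3.04 and 4.35 against 70.03, 59.1, 38.6 and 73.7 CPM, 16.2-fold higher in granulosa cells (adjusted p = 1.29e-06). CFAP221 was 6.46-fold and WDR78 1.57-fold higher there.

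Granulosa library 3 carried more of these transcripts than the other granulosa libraries. It was the highest of the 4 for 22 of the 31 genes, and their summed level was 515 CPM there, against 328 to 362 CPM in the other granulosa libraries and 474 to 572 CPM in the cumulus libraries. CFAP44 was at 32.0 CPM in that library, where MUC16 was also high, and at 0.159 to 1.89 CPM in the others. Its log2 fold change was -1.55 with the library and 1.89 without it, neither called. With cumulus library 4 and granulosa library 3 left out, 9 cilium genes passed toward cumulus and 3 toward granulosa cells, and the list's median log2 fold change was 0.47 in place of -0.08.

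Histone genes differed in both directions. Of 20 replication-dependent histones, which are made for new DNA, 3 were higher in cumulus cells, 5 in granulosa cells and 12 were not called, beside 24.6% and 23% of all entries higher in each type. HIST1H2BB (H2BC15) was 3.39-fold higher in granulosa cells, at 33.0, 37.4, 30.6 and 11.7 against 8.49, 9.48, 7.32 and 7.46 CPM, and LOC528329 (H4C13) 2.88-fold. HIST2H2BE (H2BC21) was 1.63-fold higher there. LOC104975676 (H2BC16) and HIST1H2AC (H2AC6) lost the call in 7 of the 8 fits with 1 library left out. The 3 higher in cumulus cells, HIST2H2AA4, HIST1H2AK and LOC516742 (H4C14), each lost it in 6 of those fits. HIST2H2AA4 and HIST1H2AK had the same count in every library and are 1 measurement. These genes are near-identical copies, so their reads can be shared among them.

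Among replacement histones, made throughout the cell cycle, H2AFZ (H2AZ1) was at 735, 775, 684 and 704 CPM in cumulus and at 995, 1197, 1069.9 and 1287 CPM in granulosa libraries, 1.55-fold apart (adjusted p = 0.000527). H3F3B was 1.41-fold and H2AFY2 (MACROH2A2) 1.81-fold higher in granulosa cells, whereas H2AFV (H2AZ2) and H2AFX (H2AX) were called 1.22-fold and 1.82-fold higher in cumulus cells. H2AFV lost the call in 4 and H2AFX in 6 of the 8 fits with 1 library left out, and H2AFY2 when cumulus library 4 and granulosa library 3 were left out together (adjusted p = 0.0571). Of the linker histones, which bind between nucleosomes, 2 of 7 were higher in cumulus cells, among them H1FX (4.41-fold). The other 5 were not called, the oocyte form H1FOO among them, beside 24.6% and 23% of all entries higher in each type. The median log2 fold change of the linker histones was 1.12, and 0.20 over those still tested with the 2 libraries left out.

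Zinc-finger genes encode DNA-binding proteins, many of them repressors. Of 61 tested, 15 were higher in cumulus cells, a share equal to the 24.6% of all entries, and 5 in granulosa cells, where 23% of all entries were. The other 41 were not called, and the median log2 fold change was 0.47. ZNF446 was 9.35-fold higher in cumulus cells, at 2.77 to 3.82 against 0.211 to 0.582 CPM, and ZNF584 3.56-fold, at 17.9 to 23.8 against 3.12 to 8.03 CPM. ZNF232 was 6.58-fold higher, with 3.99-fold without cumulus library 4 and 10.2-fold without granulosa library 1. It was not called with cumulus library 4 and granulosa library 3 both left out (adjusted p = 0.0545). ZNF469 was the largest of those higher in granulosa cells, at 0.669 to 4.22 against at most 0.113 CPM. The others were ZNF81 (2.38-fold), ZNF793 (1.77-fold), ZNF804A and ZNF664 (both 1.52-fold), of which ZNF793 lost the call in 6 of the 8 fits with 1 library left out and ZNF664 without both libraries (adjusted p = 0.069).

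The RING-CH ubiquitin ligases, which tag membrane proteins for removal, had 3 of 11 members higher in each type, shares near the 24.6% and 23% of all entries. Besides MARCH11, MARCH3 (MARCHF3) was at 2.65, 3.84, 5.38 and 3.45 CPM in cumulus and at 81.4, 61.2, 54.7 and 99.5 CPM in granulosa libraries, 19.1-fold apart (adjusted p = 2.16e-06). MARCH1 (MARCHF1) was 2.63-fold higher in granulosa cells, and was not called without cumulus library 4 and granulosa library 3 (adjusted p = 0.0702). MARCH2 (MARCHF2) and MARCH6 (MARCHF6) were 2.16-fold and 1.70-fold higher in cumulus cells. MARCH10 (MARCHF10) was called 1.63-fold higher there and lost the call in 7 of the 8 fits with 1 library left out.

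Mitochondrial and stress genes differed little or in both directions. Beside each count of calls here, 24.6% of all entries were higher in cumulus cells and 23% in granulosa cells. Of 8 genes of the respiratory chain and ATP synthase, ATP5MD (ATP5MK) and COX18 were 1.90-fold and 1.74-fold higher in granulosa cells, LOC100139115 (SURF1) was 2.71-fold higher in cumulus cells with overlapping groups and lost the call in 3 of the 8 fits with 1 library left out, and 5 were not called. MRPL14, a mitochondrial ribosomal protein, was 2.42-fold higher in granulosa cells at 232 to 347 against 109 to 121 CPM, and MARC2 (MTARC2), a reductase of the outer membrane, 2.87-fold higher in cumulus cells. The selenoprotein gene GPX6 was 6.31-fold and SELENOW 1.32-fold higher in granulosa cells. SELENOH was called 1.46-fold higher in cumulus cells and lost the call in 6 of the 8 fits with 1 library left out. HSPA6, a stress-inducible HSP70, was 6.79-fold higher in cumulus cells, whereas BAG5, of a family of HSP70 cochaperones, was 2.33-fold higher in granulosa cells. Of 8 entries found for actin, its motors and regulators, 3 passed the low-count filter and all 3 were called, beside 47.6% of all entries. MYO18A (4.29-fold) and MYO1H (2.50-fold) were higher in granulosa and MYL5 (2.72-fold) was higher in cumulus cells. Of 8 glycosyltransferase and sulfotransferase genes none was higher in cumulus cells, OST4 (1.44-fold) and B4GALT7 (1.29-fold) were higher in granulosa cells, and B4GALT7 lost the call in 6 of those 8 fits. None of 4 tested genes of cadherins and junctions was called. Their median log2 fold change was -1.47, and 2 of them did not overlap between types, beside 46% of all entries.

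The same cell types were then compared on the ipsilateral ovary, which shares no library with the contralateral comparison; whether the pools share animals is not stated. There 7319 of 16525 entries (44.3%) were called. In both ovaries 5778 entries were called, all with the same direction, which is 71.8% of the contralateral and 78.9% of the ipsilateral calls. A further 2092 contralateral calls were tested but not called on the ipsilateral side, and 178 were not tested there. Of the 86 called genes that the naming rule picked, 66 were also called in the same direction on the ipsilateral side.

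**Figure D5:**
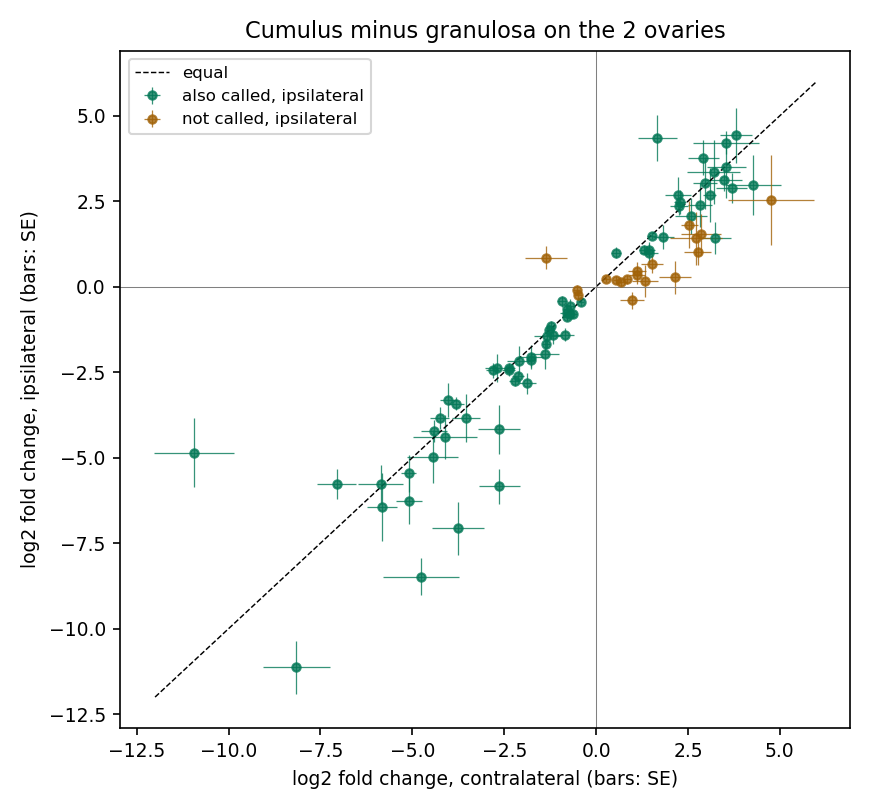
Log2 fold change (cumulus minus granulosa) on the ipsilateral against the contralateral ovary for the genes picked by the naming rule and tested on both, with SE bars; the dashed line marks equal values. Green points (66) were called on both ovaries and lie in the lower left and upper right of the plot.

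A test of the difference between the 2 contrasts, over all 16 libraries, called none of 18038 entries (0%; smallest adjusted p 0.653), and 1358 (7.53%) had an unadjusted p under 0.05. DESeq2 called 1 entry, ENSBTAG00000001135, at a mean of 2.87 CPM in contralateral granulosa, 0 in ipsilateral granulosa and at most 0.409 CPM in cumulus cells. A missing call does not show that the ovaries are alike. Among the named genes with the smallest unadjusted p for this difference was MXRA5, with a log2 fold change of -2.63 ± 0.56 on the contralateral and -5.84 ± 0.51 on the ipsilateral side (unadjusted p = 0.00116). For HSPA6 the values were 2.76 ± 0.37 and 1.01 ± 0.38, and for CASC4 (GOLM2) 0.83 ± 0.11 and 0.22 ± 0.13. MUM1 (PWWP3A) had 0.67 ± 0.13 and 0.12 ± 0.10. SMKR1 had 0.98 ± 0.32 and -0.40 ± 0.25, and its contralateral call was lost in 5 of the 8 fits with 1 library left out. TTC25 (ODAD4), a cilium gene, had -1.36 ± 0.57 and 0.85 ± 0.34, neither called. Its contralateral difference was called with DESeq2 (adjusted p = 0.0406), with all 16 libraries in the fit (0.0248) and without granulosa library 4 (0.0253). The adjusted p of the difference was 0.653 for each of these 6 genes, so none of them was shown to differ between ovaries.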

How the data were processed

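The authors deposited raw read counts per gene. Column-purified, DNase-treated RNA was amplified with SMART-Seq HT and made into Nextera XT libraries, per the labels' protocols; these kits do not mark strand. FastQC, Trimmomatic, STAR and DESeq2 are named, without versions, per the submitters' processing notes. The build, annotation and counter were not given in the sources used here. Chi-square per gene between replicates was 25.3 to 49.9, where repeat sequencing of 1 library gives about 1. The p-values rest on the spread among pools, which may be partly technical.

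Counts were tested with edgeR 4.0.16 (limma 3.58.1, R 4.3.3): filterByExpr (minimum count 10, total 15), TMM scaling, robust quasi-likelihood F-test and Benjamini-Hochberg adjustment over all entries of the 8 libraries. The SE is the size of the log2 fold change over the root of F. CPM use TMM factors of all 16 libraries. Alternatives included DESeq2 1.42.0. Symbols come from the table or, by NCBI gene number, from RefSeq genes of ARS-UCD2.0, given in parentheses where they differ. Of 87 genes picked by rule, 22 repeated an Ensembl entry to within 2% or 2 counts in each of the 8 libraries, and 21 of 79 placed ones overlap another gene.

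The members and gene lists were chosen with earlier results of these data known. Genes were named if called without overlap between types: the 15 largest changes per direction at 10 CPM or more, the 8 most abundant with 2-fold changes, the 6 smallest p of the difference between ovaries (whatever the call), and up to 4 per list. Another 39 genes in the text were chosen after their values were seen. No sequences are printed, and some genes are not reported here.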

Additional observations from a re-analysis of the deposited data

Results flagged for a closer look

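Within the 4 libraries of a type, 25 of 248 groups of values (10.1%) held 1 library whose gap to the nearest other exceeded Dixon's 95% critical value. Independent, normal values of unselected genes would give about 1 in 20. Some of these genes were chosen after their values were seen, so no excess over that rate can be read from the count. Cumulus library 4 was the high one for BCL2L10 (111 CPM, others 0.259 to 9.63), H1FOO (H1-8, 92.2 CPM), SEPT8 (SEPTIN8, 90.7 CPM), SEPT1 (SEPTIN1, 14.3 CPM), ZNF232 (8.36 CPM), CILP (6.05 CPM), LOC786474 (PNPLA3, 2.83 CPM) and PIEZO2 (2.32 CPM). Granulosa library 3 was the high one for H2AFY2 (MACROH2A2, 77.2 CPM, others 44.6 to 45.3), SELENOH (67.1 CPM), CFAP44 (32 CPM), EMB (30.1 CPM), BCL2L10 (5.53 CPM), H1FOO (5.23 CPM) and COL9A3 (0.593 CPM). Both libraries held oocyte transcripts, as did cumulus library 2 (9.63 CPM of BCL2L10), and granulosa library 3 also held MUC16. The part of those cells in the other genes was not tested.

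Granulosa library 4 was high for LOC527796 (RSKR, 20.2 CPM, others 1.28 to 2.27) and LOC516742 (H4C14, 12.7 CPM), and low for LOC104975676 (H2BC16, 1.03 CPM). Without it LOC527796, a kinase-related gene at 47.4 to 116 CPM in cumulus libraries, was 42-fold rather than 11.5-fold higher in cumulus cells. The remaining values that stood apart were IRS1 at 66.1 CPM in granulosa library 2, LOC526067 (SLC22A12) at 0.422 CPM in granulosa library 1, ZNF584 at 23.8 CPM in cumulus library 1 and IL1RAPL2 at 88.4 CPM in cumulus library 2. In cumulus library 3 they were MARC2 (MTARC2) at 23 CPM, MARCH1 (MARCHF1) at 1.81 CPM and MARCH11 at 0.13 CPM.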

How the results depend on the processing

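The number of entries called between the cell types was 7264 to 9023 under the alternatives that kept each type's libraries or left out cumulus library 4 and granulosa library 3 together, beside 8048. With 1 library left out it was 7029 (without granulosa library 1) to 8026. Among the 117 called genes named here, 22 lost the call in at least 1 alternative, and none changed direction. Of the 7 named genes not called, SEPT1 (SEPTIN1) ranged from -0.56 (without cumulus library 4) to 1.36 with 1 library left out and had -0.29 without both libraries, and SEPT8 (SEPTIN8) from -0.39 to 0.61, with -0.37. CFAP44 ranged from -1.95 to 1.89 (without granulosa library 3), and had 1.59 without both and 0.73 with limma-voom. The difference between ovaries gave 1 call with DESeq2 in place of 0; the cause was not tested. No paired analysis was possible because the sample titles carry no replicate numbers and no animals shared between pools are named. Depth limits genes under about 0.3 CPM, where single counts decide the level.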

Other observations

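Among the calls, the share higher in cumulus cells was larger for rare transcripts. Of the entries tested, 186 of 1131 below a mean of 1 CPM and 602 of 2242 at 100 CPM or more were called higher in cumulus cells. The share called in either direction rose over the same range, from 23.6% to 68.4%. Of the calls, 69.7% were higher in cumulus cells below a mean of 1 CPM (186 against 81), 57.5% from 1 to 10 CPM, 52.1% from 10 to 100 CPM and 39.3% at 100 CPM or more (602 against 931). This order was kept with median-of-ratios factors, library totals alone, DESeq2, limma-voom and without cumulus library 4 and granulosa library 3 (66.5%, 56.9%, 50.3% and 36.9%), alternatives chosen after seeing the data. By kind of entry, 384 protein-coding LOC genes were tested and 39.1% called, 106 toward cumulus and 44 toward granulosa cells. For 730 long non-coding LOC genes tested, 44.4% were called and the numbers were 192 and 132. For 14427 Ensembl entries tested, 48.5% were called and they were 3524 and 3479. Over all entries 47.6% were called, 24.6% toward cumulus and 23% toward granulosa cells. The median level was 4.57 CPM, 2.67 CPM and 20.01 CPM in these 3 kinds, so kind and level move together.

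No count in any cumulus library and at least 10 counts in each granulosa library were seen for 18 entries, with MUCL3 the only named one; 7 of them also had no count in ipsilateral cumulus cells. The reverse held for 11 entries, none of them named, and 3 of these had no count in ipsilateral granulosa cells. The mean in the higher type reached 26.9 CPM in the first set and 4.01 CPM in the second.

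Among entries with an Ensembl ID alone and at least 100 CPM in one type, chosen after their values were seen, ENSBTAG00000014955 had a mean of 209 CPM in cumulus against 2.96 CPM in granulosa libraries, and ENSBTAG00000017223 at 347 and 12.6 CPM. ENSBTAG00000009938 was at 0.0687 and 389 CPM, and ENSBTAG00000014484 at 0.306 and 172 CPM.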
